A study of Mus musculus with 10 samples.

Results

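Cortical projection neurons are the excitatory, long-range output cells of the cortex, and 9 genes that regulate or mark their classes were followed here: Bcl11b, Fezf2, Tbr1, Cux1, Cux2, Tle4, Foxp2, Bcl6 and Etv1. They were picked by gene symbol, with earlier results of these data known. Each was listed once, under 1 Ensembl identifier, in all 10 libraries, so they were 9 of the 30406 genes common to every library. The tissue was mouse medial prefrontal cortex, from males of the inbred strain C57BL/6N that were over 2 months old and whose place in a social hierarchy had been set with the tube test, a contest in which the mouse that backs out of a narrow tube loses. Single cells were taken 1 day after the last contest, released with papain and run on the 10x Genomics droplet system, which counts unique molecular identifiers (UMIs, 1 per captured RNA molecule). The Rank1 group (dominant mice) and the Rank4 group (subordinate mice) had 5 libraries each, all from untreated mice of that one strain with no allele named in the labels. Each library pooled tissue of 2 to 3 mice, so a library and not a mouse or a cell was the replicate, and values of single mice cannot be told apart.

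Projection neurons are divided by layer and target. Intratelencephalic (IT) neurons of the upper layers and of layer 5 connect cortical areas, pyramidal tract (PT) neurons of layer 5 reach the brainstem and spinal cord, corticothalamic (CT) neurons of layer 6 reach the thalamus, and near-projecting (NP) neurons of the deep layers have short local axons. In development, the zinc finger factor Fezf2 and its downstream factor Bcl11b (Ctip2) direct subcerebral identity, the T-box factor Tbr1 directs corticothalamic identity and represses Fezf2, and the homeodomain factors Cux1 and Cux2 mark upper-layer neurons. Foxp2 (a forkhead factor) and Tle4 (a Groucho-type co-repressor, not a DNA-binding factor) mark layer 6, Etv1 (an ETS factor, also called ER81) marks layer 5, and Bcl6 is a zinc finger repressor.

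All 9 members are protein-coding genes, placed here on the GRCm38 build with the GENCODE M21 annotation. Chromosome 12 carries Bcl11b (107910403 to 108003602, minus strand) and Etv1 (38779380 to 38870484, plus strand). Cux1 (136248135 to 136567490) and Cux2 (121856366 to 122050102) both lie on the minus strand of chromosome 5. Fezf2 spans 12342094 to 12348189 on the minus strand of chromosome 14, and Tbr1 spans 61802930 to 61814114 on the plus strand of chromosome 2. Tle4 was found on chromosome 19 (14448150 to 14598051, minus strand), Foxp2 on chromosome 6 (14901349 to 15441977, plus strand) and Bcl6 on chromosome 16 (23965052 to 23988852, minus strand). Annotated antisense genes cover exons of Cux1 (Gm16599) and Cux2 (Gm15637), and the opposite-strand gene Gm37419 covers an exon of Bcl6. Whether strand was used in the authors' counting was not given in the sources used here, so reads of these 3 members and of those partners may not be separable.

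The RefSeq promoter table (GRCm38.p6) held a start site for 8 of the 9 members. The 250 bases before the outermost start in that table are shown for Bcl11b, Fezf2 and Tbr1, whose levels were highest in deep-layer subclasses, and for Cux2, whose level was highest in L2/3 IT. RefSeq and GENCODE starts differ: against the GENCODE spans above, the Fezf2, Tbr1 and Cux2 windows lie inside the gene and the Bcl11b window overlaps its upstream end. They are read 5′ to 3′ on the gene's own strand, and capitals mark the homeodomain core TAATTA.
Bcl11b, chr12:108003415-108003664, minus strand: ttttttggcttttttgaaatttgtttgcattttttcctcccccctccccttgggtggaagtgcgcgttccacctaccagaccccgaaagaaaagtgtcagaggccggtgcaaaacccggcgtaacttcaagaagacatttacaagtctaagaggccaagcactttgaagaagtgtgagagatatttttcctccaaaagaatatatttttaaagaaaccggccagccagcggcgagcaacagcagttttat
Fezf2, chr14:12345866-12346115, minus strand: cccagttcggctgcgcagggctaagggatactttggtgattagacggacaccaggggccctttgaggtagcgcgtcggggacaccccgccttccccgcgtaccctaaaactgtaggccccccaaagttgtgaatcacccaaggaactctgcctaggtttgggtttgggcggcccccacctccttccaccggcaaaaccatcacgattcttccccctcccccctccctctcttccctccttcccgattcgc
Tbr1, chr2:61804203-61804452, plus strand: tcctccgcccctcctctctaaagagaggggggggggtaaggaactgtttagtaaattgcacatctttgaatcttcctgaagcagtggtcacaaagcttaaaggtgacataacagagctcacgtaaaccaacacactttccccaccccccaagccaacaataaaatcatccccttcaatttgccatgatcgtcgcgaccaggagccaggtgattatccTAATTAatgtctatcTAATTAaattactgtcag
Cux2, chr5:122049852-122050101, minus strand: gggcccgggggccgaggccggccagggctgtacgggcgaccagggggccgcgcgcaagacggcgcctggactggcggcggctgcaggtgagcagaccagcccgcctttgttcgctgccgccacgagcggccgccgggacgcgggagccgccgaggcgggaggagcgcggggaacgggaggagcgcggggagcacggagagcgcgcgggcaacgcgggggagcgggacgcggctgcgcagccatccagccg
The 4 windows differed in base composition. G and C made up 44.8% of the Bcl11b window, 45.2% of the Tbr1 window, 61.2% of the Fezf2 window and 80.0% of the Cux2 window, against a median of 52.4% over 32851 promoter windows. TAATTA, which is its own reverse complement, occurred in 2 places before Tbr1 and in none of the other 7 member windows, and 4.84% of all windows held it. A forkhead core, TGTTTAC, was searched on both strands and was found once, before Cux1 (3.17% of all windows). The T-box core GGTGTGA (3.33% of windows), the ETS core CCGGAAG (6.91%), the CUT core ATCGAT (0.728%) and the E-box CAGATG (14.4%), each on both strands, were not found in the 8 windows. These motifs were chosen with the sequences in view, and a match is a description of letters.

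The libraries held 4442750 to 29278466 UMIs over 1838 to 15826 deposited barcodes, and 45045 of 64937 barcodes were kept as single cells. Software version 3.1.0 had written the files of replicates 1 to 3 and version 4.0.0 the files of replicates 4 and 5, the same in each rank. Between 0 and 104 barcodes were shared by any 2 libraries, the most between replicate 1 of both ranks. That pair also stood apart in its lowest UMI total per barcode (739 in Rank1 replicate 1 and 1037 in Rank4 replicate 1, against 500 or 501 in the other 8). Cells were clustered without the 9 members and named from marker genes that include none of them, so a name means cells like that class. There were 16482 excitatory neurons and 2153 inhibitory neurons, and all 6 excitatory markers were found in at least 29.0% of the excitatory neurons. Within them, 3661 cells were named L2/3 IT, 2748 L5 IT, 1085 L5 PT, 840 L5/6 NP and 3942 L6 CT. The L5 IT name rested on only 3 of 7 markers found in at least 10% of cells. Another 4206 excitatory neurons stayed unnamed, and these include cells led by haemoglobin genes (1804) and cells led by Oprk1 and Sulf1 (1625). At least 20 cells per library were required, which L2/3 IT, L5 IT and L5 PT met in 10 libraries, L6 CT in 8 and L5/6 NP in 7. Levels are given as CPM, the UMIs of a gene scaled to a fixed total of 1000000 UMIs of the summed cells, mean ± SD over libraries. CPM of different genes were not corrected for length, since droplet UMIs count transcript ends, and are compared within a gene only.

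The label of the set fitted its members to different degrees. Over the 8 classes with at least 20 cells in all 10 libraries, mean CPM was highest in excitatory neurons for Bcl11b, Fezf2, Tbr1 and Foxp2 only. It was higher in another class for Tle4 (77.5 ± 53.8 CPM, against 162 ± 71.7 in astrocytes), Etv1 (123 ± 20.04, against 275 ± 82.9 in oligodendrocytes), Cux2 (59.7 ± 25.6, against 67.9 ± 17.5 in inhibitory neurons), Cux1 (20.2 ± 5.97, against 78.5 ± 26.5 in microglia) and Bcl6 (5.47 ± 2.44, against 24.0 ± 13.5 in astrocytes). By number of molecules, which also depends on how many cells of a class were captured and how deeply, excitatory neurons held 82.9% of all Tbr1 UMIs, 82.2% of Foxp2, 81.5% of Bcl11b, 71.7% of Fezf2, 66.9% of Cux2, 60.1% of Etv1 and 54.8% of Tle4. Only 31.1% of Bcl6 UMIs and 30.5% of Cux1 UMIs came from them. Cux1 was lower in excitatory neurons (20.2 ± 5.97 CPM) than in endothelial cells (52.1 ± 15.6) in 10 of 10 libraries. Detection per cell was sparse. A UMI was seen in 32.8% of excitatory neurons for Bcl11b, 31.3% for Tbr1, 21.5% for Tle4, 20.1% for Etv1, 15.8% for Fezf2, 12.3% for Foxp2, 10.8% for Cux2, 7.32% for Cux1 and 1.93% for Bcl6, at a median of 2408 UMIs per cell.

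**Figure D1:**
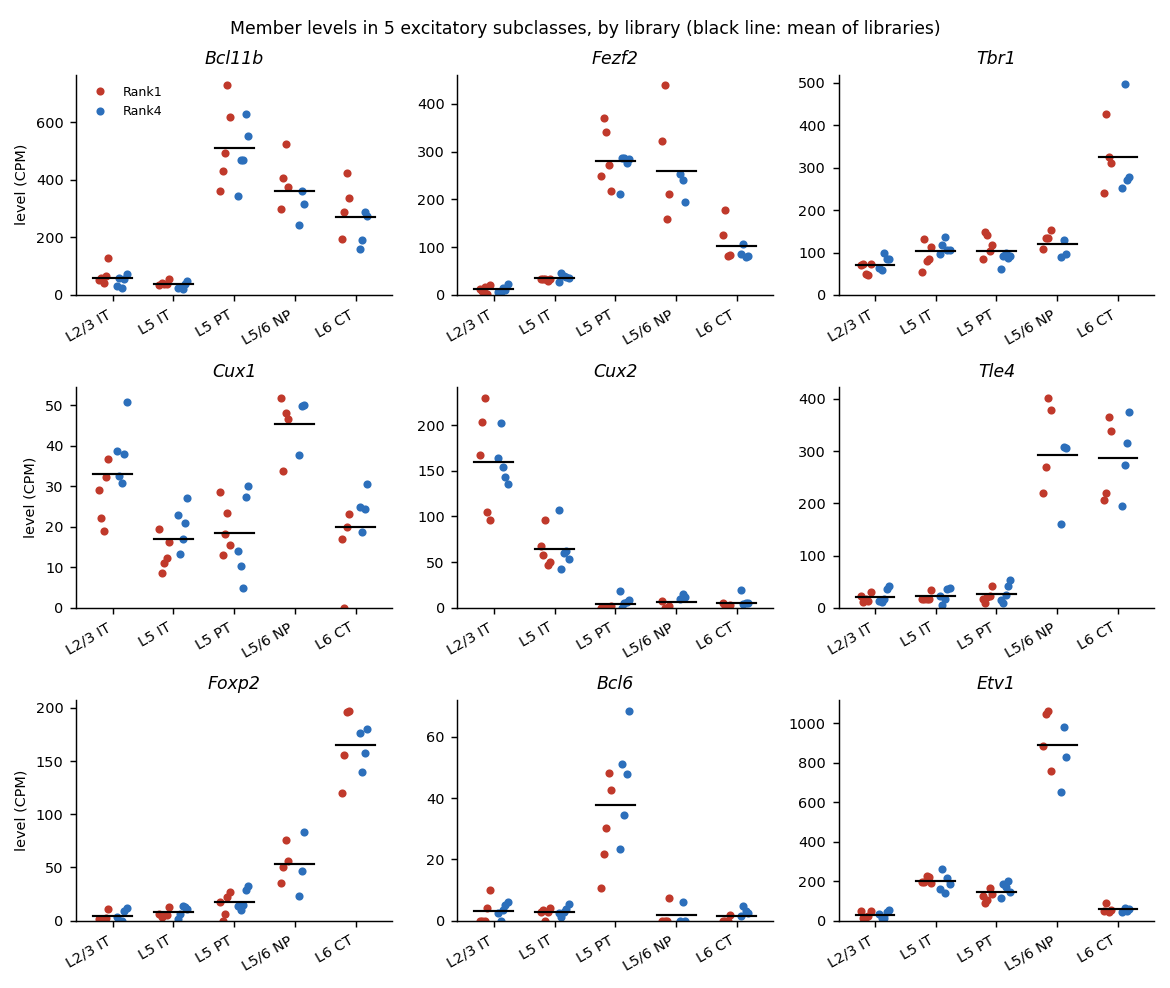
Level of each member (y axis, CPM, from 0) in 5 excitatory subclasses (x axis), with 1 point per library, red for Rank1 and blue for Rank4, and a black line at the mean of all libraries. Bcl11b and Fezf2 are highest in L5 PT, Tbr1 and Foxp2 in L6 CT, Cux2 in L2/3 IT, Bcl6 in L5 PT and Etv1 in L5/6 NP, and red and blue points overlap for every member in its highest subclass.

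Bcl11b and Fezf2, the pair of factors for subcerebral projection, were both highest in L5 PT neurons. Bcl11b in L5 PT stood at 361, 432, 494, 730 and 617 CPM in Rank1 replicates 1 to 5 and at 344, 471, 471, 627 and 551 CPM in Rank4. All 10 libraries were above the highest L2/3 IT value of any library (130 CPM), and replicates 4 and 5 were higher than replicates 1 to 3 in both ranks. The Bcl11b order was L5 PT (510 ± 122), L5/6 NP (361 ± 90.3), L6 CT (270 ± 87.1), L2/3 IT (59.2 ± 29.4) and L5 IT (37.2 ± 10.97). Neighbours in each order were compared within libraries with two-sided exact sign-flip tests on log2(CPM + 10), adjusted by Benjamini-Hochberg over 36 pairs. Each library was a unit, although same-numbered libraries of the 2 ranks deviated together, so the p-values take more independence than the libraries may have. With same-numbered libraries joined as units, no step could reach a p of 0.05. L5 PT exceeded L5/6 NP by 0.51 ± 0.27 (7 of 7 libraries, exact adjusted p = 0.0331), L6 CT exceeded L2/3 IT by 2.08 ± 0.46 (8 of 8, exact adjusted p = 0.0256) and L2/3 IT exceeded L5 IT by 0.49 ± 0.30 (10 of 10, exact adjusted p = 0.0176). The step from L5/6 NP to L6 CT was 0.36 ± 0.19 in 6 of 6 libraries, and its exact adjusted p of 0.0511 missed the threshold of 0.05 with the smallest raw p that 6 libraries allow, 0.0313.

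Fezf2 in L5 PT was counted at 250, 371, 341, 272 and 218 CPM in Rank1 and at 212, 287, 287, 275 and 284 CPM in Rank4, with no separation of the ranks. Its mean there was 280 ± 49.0 CPM, beside 260 ± 94.5 in L5/6 NP, 103 ± 34.4 in L6 CT, 34.9 ± 5.25 in L5 IT and 12.1 ± 6.40 in L2/3 IT. L5 PT and L5/6 NP were not told apart (difference 0.09 ± 0.42, higher in 4 of 7 libraries, exact adjusted p = 0.812). Fezf2 fell from L6 CT to L5 IT by 1.33 ± 0.39 on the log2 scale and from L5 IT to L2/3 IT by 1.07 ± 0.45, in every library compared (exact adjusted p = 0.0256 and 0.0176). So Fezf2 was lower in L2/3 IT than in L5 IT, while Bcl11b was higher there. The lower value of each was near that of endothelial cells. These had 11.9 ± 9.01 CPM of Fezf2, and 23.5 ± 21.5 CPM of Bcl11b beside 37.2 in L5 IT.

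The corticothalamic members Tbr1, Foxp2 and Tle4 had high levels in L6 CT, with different breadth over the other subclasses. Tbr1 in L6 CT was 239, 426, 326 and 311 CPM in Rank1 replicates 1, 3, 4 and 5 and 252, 497, 270 and 278 CPM in the same replicates of Rank4, with replicate 3 the highest in both ranks. It was 325 ± 90.9 CPM in L6 CT and between 70.1 and 121 CPM in the other 4 subclasses, so no subclass lacked it. Tbr1 was higher in L6 CT than in L5/6 NP in 6 of 6 libraries (1.18 ± 0.20, exact adjusted p = 0.0511) and higher in L5 PT than in L2/3 IT (0.48 ± 0.50, 8 of 10 libraries, exact adjusted p = 0.0331). L5/6 NP, L5 IT and L5 PT did not differ beyond their spread for Tbr1 (exact adjusted p = 0.164 and 0.971).

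Foxp2 was the most restricted of these 3, with 81.2% of its excitatory UMIs in L6 CT cells. L6 CT libraries gave 120, 155, 196 and 197 CPM in Rank1 and 176, 139, 157 and 180 CPM in Rank4, an overlapping range with a mean of 165 ± 27.2 CPM. L5/6 NP followed at 53.1 ± 21.03, then L5 PT at 17.4 ± 10.4, L5 IT at 7.99 ± 4.40 and L2/3 IT at 3.97 ± 4.81. The 3 lower steps passed (exact adjusted p from 0.0331 to 0.0352), and the step from L6 CT to L5/6 NP was 1.58 ± 0.49 in 6 of 6 libraries with an exact adjusted p of 0.0511. The 2 lowest levels rest on very few UMIs per library and compare with 9.44 ± 6.75 CPM in endothelial cells.

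Tle4 divided the subclasses into 2 sets. It stood at 206, 219, 365 and 338 CPM in the 4 Rank1 libraries with L6 CT cells and at 196, 274, 315 and 374 CPM in the 4 Rank4 libraries, where replicates 4 and 5 were the higher ones in both ranks. L5/6 NP (292 ± 85.0) and L6 CT (286 ± 72.4) were not told apart (difference -0.03 ± 0.20, exact adjusted p = 0.815). L5 PT, L5 IT and L2/3 IT lay at 25.6 ± 15.1, 22.0 ± 10.3 and 21.3 ± 11.1 CPM, and L6 CT exceeded L5 PT by 2.94 ± 0.30 in 8 of 8 libraries (exact adjusted p = 0.0256). Within those low 3, neighbours did not differ beyond the spread (exact adjusted p = 0.430 and 0.844).

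Among the upper-layer members, Cux2 followed its textbook layer and Cux1 did not separate layers as sharply. Cux2 in L2/3 IT reached 167, 204, 230, 105 and 96.1 CPM in Rank1 and 164, 202, 154, 143 and 136 CPM in Rank4, and the 2 lowest libraries were Rank1 replicates 4 and 5. The mean of 160 ± 42.9 CPM was followed by 64.5 ± 21.02 in L5 IT (difference 1.19 ± 0.40, 10 of 10 libraries, exact adjusted p = 0.0176). L5/6 NP, L6 CT and L5 PT were all at or below 6.76 CPM on average and not told apart (exact adjusted p = 0.815 and 0.852). L2/3 IT and L5 IT cells together held most of the excitatory Cux2 UMIs, with 49.6% and 29.3%. Cux1 was highest in L5/6 NP (45.4 ± 6.89 CPM) and L2/3 IT (33.0 ± 8.94), which did not pass against each other (exact adjusted p = 0.0978). L2/3 IT exceeded L6 CT (19.8 ± 9.08) in 8 of 8 libraries by 0.64 ± 0.36 (exact adjusted p = 0.0256), and L6 CT, L5 PT and L5 IT did not differ beyond their spread.

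Etv1 and Bcl6 were highest in different deep-layer cells. Etv1 was strongest in L5/6 NP neurons, with 888, 1048, 1065 and 761 CPM in Rank1 replicates 1, 2, 4 and 5 and 654, 984 and 829 CPM in Rank4 replicates 1, 4 and 5. Its mean there, 890 ± 153 CPM, exceeded that in L5 IT (200 ± 34.0) by 2.11 ± 0.14 on the log2 scale in 7 of 7 libraries (exact adjusted p = 0.0331). L5 IT exceeded L5 PT (144 ± 37.2), L5 PT exceeded L6 CT (57.4 ± 15.9) and L6 CT exceeded L2/3 IT (30.9 ± 16.4), each with an exact adjusted p of 0.0256. By number of molecules, L5 IT cells held 37.0% and L5/6 NP cells 26.4% of the excitatory Etv1 UMIs.

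Bcl6 was scarce, with 358 UMIs in all excitatory neurons, and 57.8% of these came from L5 PT cells. L5 PT libraries gave 10.7, 21.8, 30.1, 48.3 and 42.6 CPM in Rank1 and 23.5, 51.2, 34.7, 47.9 and 68.6 CPM in Rank4, from 3 to 55 UMIs each. The L5 PT mean of 37.9 ± 17.1 CPM exceeded the L2/3 IT mean of 3.11 ± 3.30 in 10 of 10 libraries (1.82 ± 0.46, exact adjusted p = 0.0176). The other 4 subclasses did not differ from their neighbours beyond the spread.

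In all, 18 of the 36 neighbour steps passed. L6 CT cells were few in replicate 2 of both ranks (10 in the lowest library), and L5/6 NP cells were below the minimum in 3 libraries (3 in the lowest), so the steps that touch these subclasses rest on 6 to 8 libraries. Without Rank1 replicate 1, 4 or 5 in turn, the number passing fell to 4 each time. Fewer libraries also raise the smallest p the sign-flip test can give, and the part of this in the fall was not tested. Although the members took no part in the clustering, 4 of them were still among the 10 leading genes of a named cluster by fold in the same direction as these orders: Tle4 and Foxp2 in L6 CT, Fezf2 in L5 PT and Etv1 in L5/6 NP. Etv1 was also among the leading genes of 1 L5 IT cluster.

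The unnamed excitatory cells carried the members in other proportions. Cells led by Oprk1 and Sulf1 had 138 ± 37.3 CPM of Bcl11b and 106 ± 24.3 of Tbr1 (9 libraries), with Fezf2 at 9.57 ± 4.45, Tle4 at 9.79 ± 9.49, Foxp2 at 2.81 ± 3.78 and Cux2 at 8.25 ± 10.4 CPM. The 3 named subclasses with that much Bcl11b or more (L5 PT, L5/6 NP and L6 CT) all had at least 103 CPM of Fezf2. Cells led by haemoglobin genes, with a median of only 946 UMIs, had member levels close to the mean of all excitatory neurons (Bcl11b 135 ± 56.1, Tbr1 123 ± 73.1, Etv1 142 ± 54.4 CPM).

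**Figure D2:**
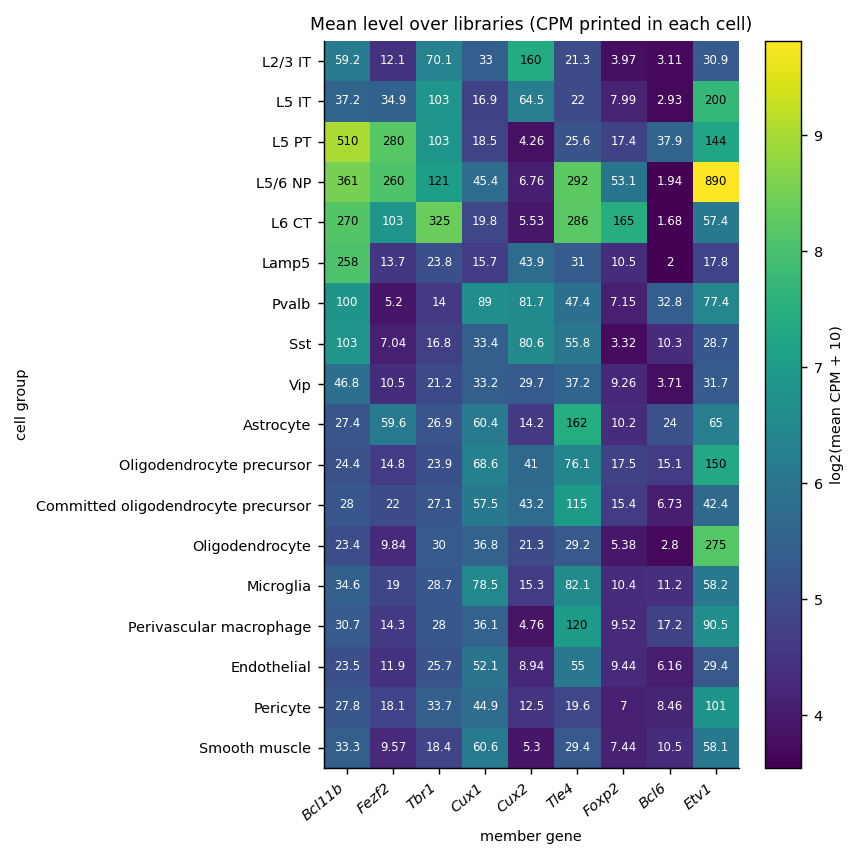
Mean level of each member (columns) in 18 groups of cells (rows), coloured by log2(mean CPM + 10) with the mean CPM over libraries printed in each square. The highest value of each member except Cux1 lies in the top 5 rows, the excitatory subclasses. Below them, values above 110 CPM are Bcl11b in Lamp5 interneurons (258), Etv1 in oligodendrocytes (275) and their precursors (150), and Tle4 in astrocytes (162), perivascular macrophages (120) and committed oligodendrocyte precursors (115).

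Droplets carry free RNA, so levels outside projection neurons were set beside those of endothelial cells. The endothelial level is not a floor for every member. Tle4 was above it in 0 of 10 pericyte libraries (19.6 against 55.0 CPM) and in 1 of 10 oligodendrocyte libraries (29.2 CPM). Cux1 was above it in 0 of 10 libraries of excitatory neurons and in 2 of 10 of oligodendrocytes. A Bcl11b UMI was seen in 4.67% of endothelial cells (median 1236 UMIs) and in 32.8% of excitatory neurons (median 2408 UMIs). With every cell thinned to 1000 UMIs and shallower cells left out (2812 endothelial and 14403 excitatory cells remained), the shares were 2.95% and 16.1%. Bcl11b in astrocytes, microglia and the oligodendrocyte lineage was 23.4 to 34.6 CPM, close to the 23.5 ± 21.5 CPM of endothelial cells, and Tbr1 in these classes (23.9 to 29.97 CPM) was likewise close to 25.7 ± 18.9. Bcl11b was above endothelial cells in 8 of 10 libraries in astrocytes, 7 in microglia, 6 in oligodendrocyte precursors and 4 in oligodendrocytes. Tbr1 was above them in 5 of 10 libraries in astrocytes, microglia and oligodendrocytes, and in 4 in the precursors. How much of these levels came from free RNA was not tested.

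Inhibitory neurons contained Bcl11b above the endothelial level in 10 of 10 libraries (118 ± 28.6 CPM). By subtype, Lamp5 interneurons had 258 ± 51.6 CPM over 4 libraries (327 CPM in Rank1 replicate 5 and 214, 265 and 223 CPM in Rank4 replicates 1, 4 and 5), Sst cells 103 ± 46.0, Pvalb cells 100 ± 24.0 and Vip cells 46.8 ± 21.7. Cux2 was also above endothelial cells in inhibitory neurons of all 10 libraries (67.9 ± 17.5 against 8.94 ± 7.25 CPM). Cux1 reached 89.0 ± 10.3 CPM in Pvalb cells, more than in any excitatory subclass mean, and Bcl6 reached 32.8 ± 19.0 CPM there. Fezf2 (7.16 ± 6.42), Foxp2 (4.18 ± 5.90) and Tbr1 (15.1 ± 11.9 CPM) were at or below the endothelial level in inhibitory neurons.

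Glia carried 5 members above the endothelial level in every library, Tle4, Fezf2, Bcl6, Etv1 and Cux2. Tle4 in astrocytes was 110, 113, 106, 261 and 227 CPM in Rank1 and 94.0, 128, 91.4, 236 and 250 CPM in Rank4, against a mean of 55.0 ± 24.7 in endothelial cells. In both ranks replicates 4 and 5 gave the higher astrocyte values, as for Tle4 in L6 CT neurons. Fezf2 in astrocytes was 59.6 ± 16.1 CPM (range 41.9 to 100), above endothelial cells (11.9 ± 9.01) in 10 of 10 libraries, and Bcl6 was 24.0 ± 13.5 against 6.16 ± 4.10, also in 10 of 10. Etv1 was 275 ± 82.9 CPM in oligodendrocytes and 150 ± 32.4 in their precursors, both above endothelial cells (29.4 ± 23.4) in 10 of 10 libraries, as was its mean of 65.0 CPM in astrocytes, and a UMI of it was seen in 30.4% of oligodendrocytes. Cux2 in oligodendrocyte precursors was 41.0 ± 12.97 CPM, above the endothelial level in 10 of 10 libraries.

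Co-detection asks whether 2 members were counted in the same excitatory neuron more often than their separate rates give. The odds ratio was pooled over 5 strata of UMI total within each library, and it is a description with no test, since cells of 1 library share their source. The strongest pairing was Tle4 with Foxp2, seen together in 1104 cells where 579 were expected (odds ratio 4.48, above 1 in 9 of 9 libraries). Fezf2 and Bcl6 followed (140 cells, 67.1 expected, 3.51), then Bcl11b with Bcl6 (198 cells, 135 expected, 2.53), Fezf2 with Etv1 (1005 cells, 638 expected, 2.52) and Bcl11b with Fezf2 (1480 cells, 1077 expected, 2.48). Bcl11b and Tbr1 shared 2436 cells where 2116 were expected (odds ratio 1.64, above 1 in 10 of 10 libraries).

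Cux2 was the member found apart from the others. Its odds ratio was 0.224 with Foxp2 (60 cells, 209 expected), 0.315 with Fezf2 (132 cells, 316 expected), 0.322 with Bcl11b (302 cells, 599 expected) and 0.427 with Tle4 (202 cells, 369 expected). With Foxp2, Fezf2 and Bcl11b it was below 1 in every library where it was defined (8, 10 and 10). Only Cux1 went with Cux2 (212 cells, 151 expected, odds ratio 1.64, above 1 in 10 of 10 libraries). Tbr1 and Etv1 (0.949) and Tbr1 and Cux1 (0.996) were seen together about as often as their rates give.

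Several of these odds ratios came close to 1 within subclasses. Over the named cells alone, adding the subclass to the strata took Tle4 with Foxp2 from 3.70 to 0.988, Bcl11b with Fezf2 from 2.82 to 1.11 and Cux2 with Foxp2 from 0.190 to 0.968. The pairs farthest from 1 were then Bcl6 with Etv1 (1.43, 124 cells, above 1 in 8 of 10 libraries), Fezf2 with Etv1 (1.42, above 1 in 10 of 10), Cux1 with Cux2 (1.36, above 1 in 8 of 10) and Bcl11b with Bcl6 (1.30, above 1 in 7 of 9) on the high side. Cux2 with Etv1 (0.620, above 1 in 1 of 10) was the farthest on the low side. The mean log2 odds ratio over libraries was then 0.57 ± 0.29 for Fezf2 with Etv1, 0.59 ± 0.63 for Cux1 with Cux2 and -0.70 ± 0.54 for Cux2 with Etv1. The SD also exceeded the mean for both pairs with the scarce Bcl6 (0.09 ± 1.26 with Etv1 and 0.49 ± 1.06 with Bcl11b). The Tle4 and Foxp2 pair was also smaller when cells were thinned to 1000 UMIs (2.36).

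**Figure D3:**
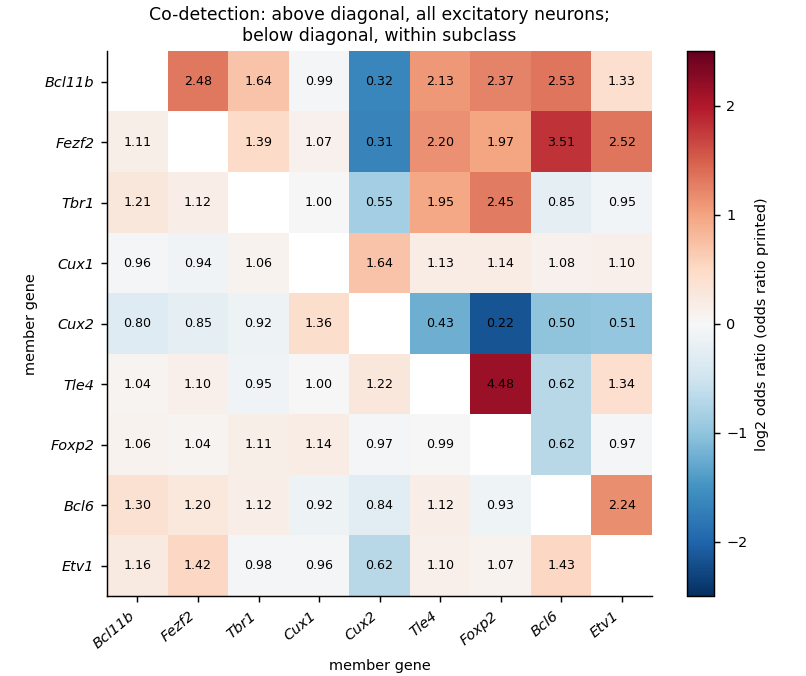
Odds ratio of finding 2 members in the same cell (printed; colour on a log2 scale) for each of 36 pairs, above the diagonal over all excitatory neurons in depth strata and below it in strata of depth and named subclass. The Cux2 row is blue above the diagonal except with Cux1, Tle4 with Foxp2 is the reddest square, and most squares below the diagonal are near 1.

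Rank was compared in sums of UMIs per library with edgeR's quasi-likelihood test, with the software version as covariate and Benjamini-Hochberg adjustment over all genes tested in a class. In excitatory neurons all 9 members passed the filter on low counts, and 0 of 9 passed the test, as did 0% of the 12322 genes tested. At an unadjusted p under 0.05, 2 members (Bcl11b and Fezf2, both higher in Rank1) stood beside 3.69% of all genes. In the blocked fit below, 1 member passed where edgeR called 0.552% of genes. The median log2 difference over the 9 members was 0.11, with 5 above 0. Of the other classes, astrocytes had 9 members tested, inhibitory neurons 6, endothelial cells 5, oligodendrocyte precursors 4, microglia 3, oligodendrocytes 2 and pericytes 1, and no member passed in any of them, where 0% of genes passed as well. With the replicate block 0 members passed in these classes as well, where edgeR called 0.528% of genes in astrocytes, 0.565% in endothelial cells, 0.1% in inhibitory neurons, 0.0186% in microglia, 0.0134% in oligodendrocyte precursors and 0% in oligodendrocytes and pericytes. No member passed the count filter in smooth muscle cells, where 0.212% of genes were called.

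Bcl11b in excitatory neurons was counted at 128, 98.7, 145, 240 and 272 CPM in Rank1 replicates 1 to 5 and at 84.8, 64.3, 98.5, 206 and 181 CPM in Rank4. The Rank1 library was the higher one in 5 of 5 same-numbered pairs, the 2 ranks overlapped, and replicates 4 and 5 lay above the rest in both ranks. The log2 difference was 0.50 (SE 0.15, n = 5 per rank), with an edgeR p of 0.00635 and an adjusted p of 1.00. Same-numbered libraries of the ranks deviated together, and with the replicate number as a block the difference was again 0.50 with an SE of 0.09 and Bcl11b passed in edgeR (adjusted p = 0.0314). That call depended on the libraries: with each pair left out in turn the blocked difference was 0.48 to 0.60, but it passed only without pair 4 (edgeR adjusted p = 0.0131) and gave 0.114, 0.0527, 0.111 and 0.138 without pairs 1, 2, 3 and 5. The number of genes called in the blocked fit was 68 with all pairs and 2, 69, 1, 60 and 4 without pairs 1 to 5. DESeq2 with the same block gave an adjusted p of 3.58e-04 and called 1.03% of genes. Over all alternatives the adjusted p of this difference lay between 3.58e-04 and 1.00. In bulk sums like these, more cells of a Bcl11b-rich subclass and more Bcl11b RNA per cell cannot be told apart.

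The shares of the subclasses stand beside this comparison. L5 PT cells, the richest in Bcl11b, made up 8.48% ± 2.91 of excitatory neurons in Rank1 and 5.93% ± 2.06 in Rank4 (n = 5 per rank, two-sided exact permutation p = 0.151). Their share was higher in Rank1 in 5 of 5 same-numbered pairs (exact sign-flip p = 0.0625, a test added after seeing the data). The share of L5/6 NP cells, the next richest in Bcl11b, was 5.35% ± 1.72 and 4.10% ± 2.33, also higher in Rank1 in 5 of 5 pairs (exact permutation p = 0.373, exact sign-flip p = 0.0625). That of L6 CT cells was 17.2% ± 12.6 and 16.8% ± 10.5, higher in 2 of 5 pairs (exact permutation p = 0.960). Bcl11b was therefore also read within subclasses. There the log2 difference was 0.56 (SE 0.22) in L2/3 IT, 0.36 (SE 0.18) in L5 IT, 0.11 (SE 0.16) in L5 PT, 0.40 (SE 0.22) in L5/6 NP and 0.43 (SE 0.18) in L6 CT, above 0 in all 5 and past the test in none. In L2/3 IT the Rank1 libraries gave 53.1, 57.4, 40.5, 66.7 and 130 CPM and the Rank4 libraries 31.0, 58.0, 23.9, 56.5 and 74.5 CPM, with Rank1 replicate 5 far above the others, and the difference was 0.32 without that library. In L6 CT the values were 196, 288, 423 and 338 CPM against 158, 190, 290 and 276 CPM, higher in Rank1 in 4 of 4 pairs. A mean over the 3 subclasses present in every library, each with equal weight, put Rank1 higher by 0.28 on the log2(CPM + 10) scale, in 5 of 5 pairs (two-sided exact permutation p = 0.254; exact sign-flip p over pairs 0.0625, the smallest that 5 pairs allow). In inhibitory neurons the Bcl11b difference was 0.04 (SE 0.18). Among their subtypes, Vip cells had 18.4, 37.7 and 36.9 CPM in Rank1 replicates 1, 4 and 5 and 42.5, 75.0 and 70.3 CPM in the same replicates of Rank4, from 4 to 17 UMIs each, lower in Rank1 in 3 of 3 pairs. Bcl11b was higher in Rank1 in 2 of 2 pairs of Pvalb cells, 2 of 3 pairs of Sst cells and the 1 pair of Lamp5 cells. These subtype values were not tested. Summed markers of astrocytes in excitatory neurons ranged from 297 to 1287 CPM in Rank1 and from 268 to 1254 CPM in Rank4 (exact permutation p = 0.675). T cell markers were lower in Rank1 in 5 of 5 pairs (9.74 to 53.6 against 14.4 to 66.6 CPM, exact permutation p = 0.270). Inhibitory neuron markers (8.06 to 86.1 against 10.7 to 100.3 CPM, exact permutation p = 0.516) and pericyte markers (13.2 to 52.8 against 22.4 to 45.8 CPM, exact permutation p = 0.389) were higher in Rank1 in 1 of 5 pairs each, as were the excitatory markers themselves (2300 to 4071 against 2417 to 4052 CPM, exact permutation p = 0.595). Markers of immature neurons (88.8 to 147 against 97.2 to 136 CPM, exact permutation p = 0.659) and of fibroblasts (8.89 to 25.8 against 5.07 to 39.1 CPM, exact permutation p = 0.817) were higher in Rank1 in 4 of 5 pairs each. All markers of these lists were found above 0, and their part in the Bcl11b difference was not tested.

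**Figure D4:**
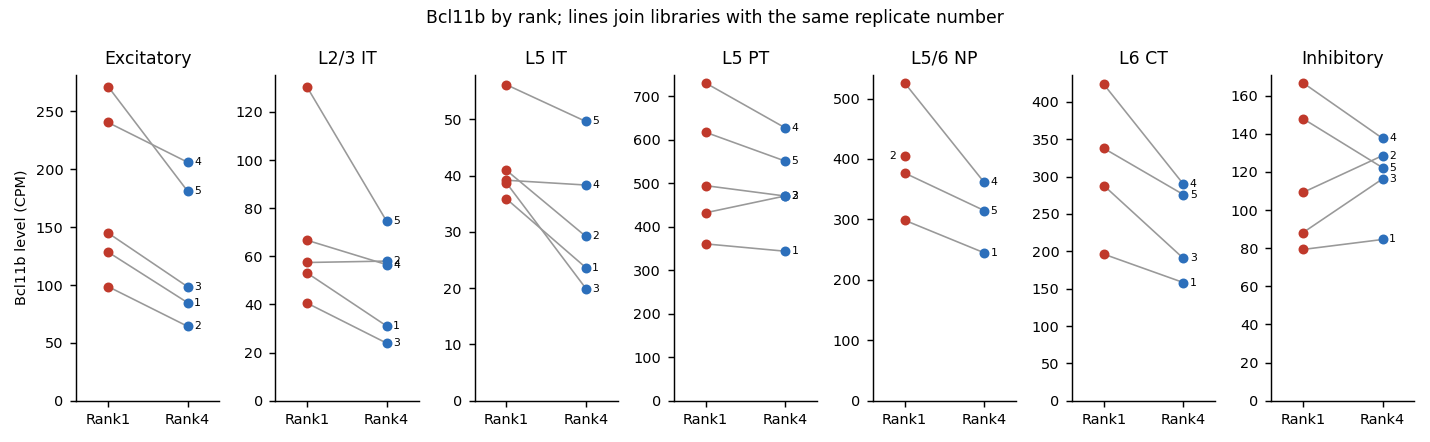
Bcl11b level (y axis, CPM, from 0, scaled separately in each panel) in excitatory neurons, their 5 subclasses and inhibitory neurons, for Rank1 (red) and Rank4 (blue) libraries, with grey lines joining libraries of the same replicate number. The lines fall from Rank1 to Rank4 in 5 of 5 pairs in excitatory neurons and in 4 of 5 in L5 PT, while the inhibitory lines go both ways.

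The Fezf2 difference was also above 0. Its excitatory levels were 80.1, 65.6, 91.9, 66.6 and 76.4 CPM in Rank1 and 49.6, 42.4, 62.1, 71.2 and 64.9 CPM in Rank4, higher in Rank1 in 4 of 5 pairs with overlapping ranks. The log2 difference of 0.38 (SE 0.15) had an edgeR p of 0.0305 and an adjusted p of 1.00, and 0.160 with the block. It was 0.61 in replicates 1 to 3 alone and 0.09 in replicates 4 and 5 alone. Within subclasses it was 0.07 in L2/3 IT, -0.13 in L5 IT, 0.09 in L5 PT, 0.01 in L5/6 NP and 0.25 in L6 CT.

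Cux1 and Cux2 had differences below 0. Cux1 in excitatory neurons was 23.2, 12.3, 12.8, 19.2 and 22.5 CPM in Rank1 and 24.5, 18.2, 14.2, 25.2 and 30.4 CPM in Rank4, lower in Rank1 in 5 of 5 pairs but overlapping. The log2 difference of -0.31 (SE 0.20) did not pass (edgeR adjusted p = 1.00, and 0.261 with the block), and it was -0.51 without Rank1 replicate 1. Cux2 stood at 57.4, 90.6, 87.2, 35.8 and 20.999 CPM against 82.7, 88.6, 51.1, 45.4 and 37.6 CPM, with the pairs split 2 to 3 (difference -0.20, SE 0.21). That difference was -0.0047 without Rank1 replicate 5, 0.0505 in replicates 1 to 3 alone and -0.54 in replicates 4 and 5 alone. In the deep subclasses, where Cux2 did not pass the count filter, it was lower in Rank1 in 3 of 3 pairs in L5/6 NP (0 to 7.96 CPM against 9.41 to 15.6) and in 4 of 4 in L6 CT (0 to 5.07 against 4.65 to 19.4), and in L5 PT it was lower in 4 of 5 pairs and 0 in both libraries of the other (0 to 1.81 against 0 to 18.8). These values rest on 0 to 18 UMIs per library, lie near the endothelial level of 8.94 CPM, and with no count filter gave edgeR adjusted p-values of 0.955, 0.720 and 0.762. Tbr1 (-0.04, SE 0.15), Tle4 (0.18, SE 0.37), Foxp2 (0.11, SE 0.44), Bcl6 (-0.20, SE 0.28) and Etv1 (0.11, SE 0.15) were within about 1 SE of 0 in excitatory neurons. The share of L6 CT cells among excitatory neurons ranged from 1.64% to 35.3% over the libraries, and its part in the wide errors of Tle4 and Foxp2 was not tested. In Rank1 replicates 1 to 5, Tle4 was 77.6, 19.5, 37.0, 99.3 and 167 CPM and Foxp2 was 37.6, 5.08, 16.6, 45.3 and 88.9 CPM. In Rank4, Tle4 was 50.0, 13.1, 43.1, 130 and 138 CPM and Foxp2 was 30.6, 4.66, 21.8, 58.9 and 61.1 CPM, lowest in replicate 2 of both ranks for both genes.

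**Figure D5:**
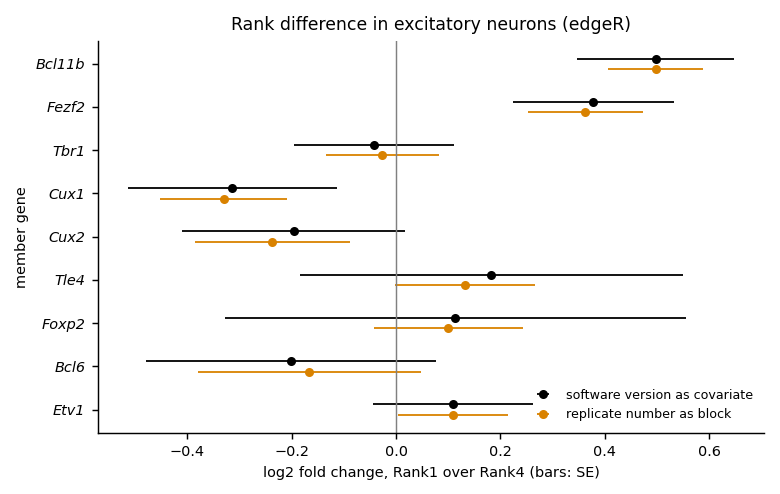
Log2 fold change of Rank1 over Rank4 in excitatory neurons (x axis) with its SE for each member (y axis), in edgeR fits with the software version as covariate (black) or with the replicate number as a block (orange). The block leaves the values nearly in place and shortens the error bars, and Bcl11b at 0.50 has the highest value in both fits.

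Within the subclasses, 7 members passed the count filter in L2/3 IT, 7 in L5 IT, 5 in L5 PT, 7 in L5/6 NP and 7 in L6 CT, and 0 passed the edgeR test in each, beside 0% of all genes. With the replicate block 0 members passed as well, where edgeR called 0.507% of genes in L2/3 IT, 1.12% in L5 IT, 0.0508% in L5 PT, 0.63% in L5/6 NP and 0.61% in L6 CT. At an unadjusted p under 0.05 the counts were 1 member in L2/3 IT (4.58% of all genes), 1 in L5 IT (4.87%), 1 in L5 PT (3.27%), 0 in L5/6 NP (4.58%) and 1 in L6 CT (3.86%), and 1 in inhibitory neurons (2.49%). Bcl11b was the one in L2/3 IT and L6 CT. Cux1 in L5 IT was 19.3, 8.53, 11.1, 12.4 and 16.3 CPM in Rank1 and 22.9, 13.3, 17.1, 20.9 and 27.2 CPM in Rank4, lower in Rank1 in 5 of 5 pairs. Its log2 difference was -0.57 (SE 0.25), with an edgeR p of 0.0397 and an adjusted p of 0.979. Tbr1 in L5 PT was 85.7, 148, 142, 104 and 117 CPM in Rank1 and 61.2, 92.1, 99.1, 86.3 and 91.0 CPM in Rank4, higher in Rank1 in 5 of 5 pairs. That difference was 0.45 (SE 0.18), with an edgeR p of 0.0203 and an adjusted p of 1.00. Tbr1 in inhibitory neurons, with a mean below the endothelial level and from 0 to 67 UMIs per library, was lower in Rank1 in 5 of 5 pairs. It differed by -1.07 (SE 0.40), with an edgeR p of 0.0141 and an adjusted p of 1.00, and by -1.88 without Rank1 replicate 5.

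Whether a rank difference itself differed between subclasses was tested for 54 combinations of member and subclass pair, and none passed after adjustment. With so few libraries, a single combination could not pass this adjustment even at its smallest possible p. No conclusion is drawn from that outcome. The smallest p was for Tbr1 between L5 IT and L5 PT (difference of differences -0.71 on the log2(CPM + 10) scale, exact permutation p = 0.00794, the smallest that 5 against 5 allows, adjusted p = 0.309), and 6 of the 54 had an unadjusted p under 0.05. Co-detection was compared between ranks for 36 pairs, of which 2 had an unadjusted p under 0.05. A single pair could not pass the adjustment here either. Bcl11b with Cux1 had a mean log2 odds ratio of 0.21 in Rank1 and -0.28 in Rank4 (exact permutation p = 0.0159, adjusted p = 0.429), and Fezf2 with Cux2 had -2.40 and -1.44 (exact permutation p = 0.0238, adjusted p = 0.429).

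For each member, the 3 genes with the most similar level over 18 cell groups were found. The measure was Pearson's r of the mean log2(CPM + 10) over these groups among 12022 genes, and the groups share libraries. Tbr1 was nearest to Rprml (0.969), Crym (0.950) and Neurod2 (0.948), and Foxp2 to Hs3st4 (0.953), Rprm (0.894) and Pcp4 (0.893), of which Hs3st4 and Rprm were L6 CT markers here. Bcl11b was nearest to Efr3a (0.907), Nos1ap (0.898) and Mfsd4a (0.897), and Fezf2 to Crym (0.875), A2ml1 (0.872) and Tox (0.847). Cux2 was nearest to Nectin1 (0.821), Slc30a3 (0.810) and Kcnip2 (0.784), and Cux1 to Mrps11 (0.836), Trmt2b (0.814) and Slc39a13 (0.780). For Tle4 the nearest were Nxph3 (0.706), Prss35 (0.688) and the member Foxp2 (0.688). For Bcl6 they were Shisa2 (0.754), Fam84b (0.726; an L5 PT marker here) and 6430573F11Rik (0.722), and for Etv1 Nudt16 (0.705), Tbata (0.704) and Ring1 (0.690). Among members, Bcl11b was most like Fezf2 (0.675), Fezf2 and Tbr1 were most like each other (0.774), and Foxp2 was most like Tbr1 (0.769).

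Paralogues of the members were often layered differently. Of 13 listed, 8 were counted in at least 1% of excitatory neurons. Bcl11a, the paralogue of Bcl11b, was spread from 79.7 CPM in L5 PT to 305 CPM in L5/6 NP, so it was lowest where Bcl11b was highest. Tle1 was highest in L2/3 IT (72.5 CPM) and lowest in L6 CT (6.83), and Tle3 was highest in L5 IT (43.9) and lowest in L5/6 NP (3.74), both opposite to Tle4. Tle2 ranged from 10.4 CPM in L5/6 NP to 43.4 in L5 PT, and Tle6 stayed at or below 7.43 CPM. Subclass means ranged from 143 to 327 CPM for Foxp1, from 21.3 to 30.3 CPM for Foxp4, and from 3.97 to 165 CPM for Foxp2. Etv5 was highest in L5 PT (252 CPM) and at 48.0 CPM in L5/6 NP, where Etv1 was highest. These orders are means over libraries with no test.

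Of 35 other transcriptional regulators of projection neurons, among them Sox5 and the Nfi and Neurod families, 34 passed the count filter in excitatory neurons. In edgeR 0 of 34 passed between the ranks (0% of all genes), 2 had an unadjusted p under 0.05, both higher in Rank1, and the median log2 difference was -0.01 with 17 above 0. The co-repressor Ctbp2 differed by 0.51 (SE 0.19), with an edgeR p of 0.0175, Nfib by 0.28 (SE 0.13), with an edgeR p of 0.0488, and the POU factor Pou3f2 by -0.44 (SE 0.24), with an edgeR p of 0.0945. These were the lowest p-values among the 34, and each had an adjusted p of 1.00. With the replicate block, 0 of 34 passed, 4 had an unadjusted p under 0.05 toward Rank1 and 2 toward Rank4, beside 12.6% of all genes in that fit. In the blocked fits of the other cell groups, 4 calls were made on this list, all higher in Rank1, and these genes are named because they were called and so after their values were seen. The basic helix-loop-helix factor Bhlhe22 passed in L2/3 IT (0.63, SE 0.13, edgeR adjusted p = 0.00613, where 0.507% of genes were called) and in L5 IT (0.63, SE 0.16, edgeR adjusted p = 0.0208). Nfib passed in L5 IT (0.52, SE 0.12, edgeR adjusted p = 0.00764, where 1.12% of genes were called), and the histone demethylase gene Kdm6b in smooth muscle cells (1.05, SE 0.27, edgeR adjusted p = 0.0378, where 0.637% were called). Without the block these had edgeR adjusted p-values of 0.158 to 1.00.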

How the data were processed

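The members, gene lists and tests were chosen with earlier results of these data known. Single-cell RNA-seq of 10 libraries was analysed, with 2 to 3 mice per library and 5 libraries per rank; p-values measure the spread between pooled libraries. The authors deposited raw UMI counts per gene and barcode, and per the file headers these came from software versions 3.1.0 and 4.0.0. Per the submitters' processing notes, Cell Ranger 4.0.0 was used with the mm10 build; the annotation release was not given in the sources used here. The deposited gene and barcode lists hold names and identifiers, with no values.

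Cells with at least 500 genes and at most 15% mitochondrial UMIs were kept. Doublets were scored against simulated doublets, and the top 0.8% per 1000 barcodes was removed (4820 barcodes). Counts scaled to 10000 per cell, 2000 variable genes, 30 principal components, 15 neighbours and Leiden clustering at resolution 1 (leidenalg 0.10.2, seed 1) gave clusters, with the 9 members left out. A cluster was named when its mean log2 ratio of marker CPM over the median cluster was at least 1 (0.5 for subclasses), led the next by 0.5 and rested on at least 3 markers in at least 10% of its cells; the 0.5 was set after the cluster scores, but not member values, had been seen. Counts were summed per library and class and tested with edgeR 4.0.16 (limma 3.58.1, R 4.3.3) after filterByExpr, with software version as covariate, in classes with at least 20 cells in at least 3 libraries per rank; DESeq2 1.42.0 was an alternative. The edgeR script was tested on simulated data. Neighbouring subclasses were compared with exact sign-flip tests on log2(CPM + 10), with each library as a unit.

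Alternatives were the replicate block, no covariate, other size factors, no count filter, 10 or 50 cells, a stricter cell filter (1000 genes, 10% mitochondrial UMIs), other clusterings, pseudocount and depth settings, each library left out, and each version alone. A blocked fit without each pair, a blocked DESeq2 fit, equal subclass weights and paired tests of subclass shares were added after seeing the data. The labels number the libraries of both ranks 1 to 5; over 5837 genes the same-numbered libraries' deviations from the rank mean correlated at 0.758, 0.899, 0.881, 0.888 and 0.930 (0.850, 0.675, 0.543, 0.215 and 0.215 with the version mean removed), all over 0.1, so they were treated as pairs; the own number gave the highest r for 4 of 5 Rank1 libraries, and for 2 of 5 with the version mean removed (replicates 3, 4 and 5 then fitted another number better, at 0.580, 0.414 and 0.361). All 9 members are named throughout; of the other factors, the 3 with the smallest p in excitatory neurons are named, of the paralogues those in at least 1% of excitatory neurons, and for likeness the 3 genes with the highest r among genes of at least 20 CPM in 1 group.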

Additional observations from a re-analysis of the deposited data

Results flagged for a closer look

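Each member was examined in excitatory neurons, their subclasses and inhibitory neurons for a library far from the other libraries of its rank, in 117 sets of 4 or 5 libraries. There were 11 such cases, all in Rank1 replicate 5 or in Rank4 replicates 1, 2 and 3. Chance gives about 1 in 20 sets when values are continuous and sets independent, but these sets share libraries and some hold mostly values of 0, so that rate may not apply. Of these, 6 were Rank1 replicate 5, in Foxp2 of inhibitory neurons (10.8 CPM, next 2.53, 12 UMIs), Foxp2 of L2/3 IT (10.8 CPM, next 2.15, 12 UMIs), Bcl11b of L5 IT (56.2 CPM, next 41.0), Tle4 of L5 IT (33.4 CPM, next 17.5), Bcl6 of L5/6 NP (7.34 CPM from 3 UMIs, next 0) and Bcl6 of L6 CT (1.75 CPM from 7 UMIs, next 0). In Rank4, replicate 1 was low for Fezf2 in L5 PT (212 CPM, next 275) and high for Cux2 in L6 CT (19.4 CPM, next 5.55). Rank4 replicate 2 was low for Etv1 in inhibitory neurons (8.04 CPM from 1 UMI, next 40.9). Rank4 replicate 3 was high for Cux2 in inhibitory neurons (98.2 CPM, next 57.8) and for Tbr1 in L6 CT (497 CPM, next 278). Without Rank1 replicate 5 the Bcl11b rank difference in excitatory neurons was 0.52, beside 0.50 with it.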

How the results depend on the processing

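The number of members past the rank test in cell classes was 0 in the edgeR fit, 1 (Bcl11b in excitatory neurons) with the replicate block in edgeR or DESeq2, 2 (Bcl11b and Fezf2) with the block without pair 4 and 0 with the block without each other pair. It was 0 under the alternatives without the block, and counts past the rank test in subclasses, between subclasses and for co-detection were 0 under all alternatives run. For the tests between subclasses and of co-detection, this does not show stability. There a single result could not pass the adjustment, and the blocked sign-flip test over at most 5 pairs cannot reach a p of 0.05. The block with all pairs changed no other call of a member. Without each library in turn the count stayed at 0. Of 36 layer steps, 18 passed, 7 with at least 50 cells per library, 7 with cells thinned to 1000 UMIs, and 4 to 17 without each library in turn; the 50-cell setting and the leave-outs use fewer libraries, and the cause of the thinned count was not tested. Bcl11b in excitatory neurons passed with the block (0.50), with the block and DESeq2 (0.51) and with the block without pair 4 (0.60), and ranged from 0.41 to 0.60 without each library or pair. Fezf2 passed only with the block without pair 4 (0.51). Signs turned for members near 0 in excitatory neurons, and the cause was not tested. Tbr1 was 0.12 with replicates 4 and 5 alone, 0.0068 with the stricter cell filter and -0.128 to 0.0799 without each library in turn (0.0731 and 0.0496 with the block without pairs 3 and 4). Cux2 was 0.0505 with replicates 1 to 3 alone and Bcl6 0.0045 with replicates 4 and 5 alone. With the block, Tle4 was -0.00025 without pair 1 and Foxp2 -0.102 without pair 5. Without each library, Tle4 ranged from -0.19 to 0.37, Foxp2 from -0.24 to 0.37 and Etv1 from -0.0021 to 0.22. Depth limits Bcl6, Foxp2 outside L6 CT and Cux2 in deep layers, which rest on few UMIs per library.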
